A study of Mus musculus with 8 samples.

Results

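The BAF complex is an ATP-dependent chromatin remodeller whose subunit composition changes as neural progenitors become neurons. The genes described here are 10 that encode exchanged subunits and the alternative ATPases. They were chosen by name: Actl6a, Phf10, Dpf2 and Ss18 encode the forms known from neural progenitors, Actl6b, Dpf1, Dpf3 and Ss18l1 encode the forms known from postmitotic neurons, and Smarca4 and Smarca2 encode the catalytic subunits. All 10 were found among 27179 genes in the count matrix, and all 10 were among the 16074 genes with enough counts to be tested. Their levels were compared in the cerebral cortex of 8 mouse embryos. In the 4 Taf8-intact embryos, labelled Taf8 +/+, both alleles are wild type, and in the 4 Taf8-deleted embryos, labelled Taf8 -/lox, a null allele faces a loxP-flanked allele. The sources used here do not give the stage of the embryos or the recombinase, and hence not the cells in which the loxP-flanked allele was recombined. Each library came from a separate embryo, and no treatment is named for either group. The Taf8 product belongs to TFIID, which recognises core promoters and recruits RNA polymerase II to them.

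As background, BAF complexes slide or evict nucleosomes with the energy of ATP, which is hydrolysed by BRG1 (encoded by Smarca4) or BRM (encoded by Smarca2). When a cortical progenitor leaves the cell cycle, the actin-related subunit BAF53A is replaced by BAF53B, the PHD finger subunits BAF45A and BAF45D by BAF45B and BAF45C, and SS18 by CREST. The replacement is known to be held back in progenitors by the repressor REST, which keeps miR-9-3p and miR-124 low, and these microRNAs in turn repress Actl6a mRNA in neurons.

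The sequence behind that last step is shown because Actl6a, the target of the microRNAs, is the member whose level differed least between the groups. The mature miR-9-3p is the same from Mir9-1, Mir9-2 and Mir9-3 in RefSeq (GRCm38.p6). In the microRNA, capitals mark the seed (bases 2 to 8), and in the target they mark the match to it. The match lies in the 3′ UTR of the Actl6a transcripts Actl6a-201 and Actl6a-205, and not in that of Actl6a-206 (310 bases). The printed stretch of Actl6a-201 is at chr3:32726629-32726657 (GRCm38, plus strand). The match within it starts at base 38 after the stop codon, in a UTR of 371 bases. The microRNA and the target stretch are both written 5′ to 3′.
mmu-miR-9-3p: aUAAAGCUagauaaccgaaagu
Actl6a site: tcaacgtctgtAGCTTTAgtacactcagg
The 7 letters AGCTTTA, searched on the transcript strand alone, occurred in none of the annotated 3′ UTRs of Actl6b. A match is a description of the sequence and not a measured site of repression. The mature microRNAs themselves were not measured, because the libraries were made from polyadenylated RNA.

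The libraries held 39590959 to 44788200 counts. Taf8 itself had 1222 to 1491 counts in the intact and 14 to 30 counts in the deleted libraries, so that each library carried the Taf8 level of its label. Levels are given as CPM, counts scaled to the library size, as mean ± SD over 4 libraries. Library sizes were first adjusted by the trimmed mean of M-values (TMM). A level is thus relative to the other mRNA of its library. A change in mRNA per cell that most genes share would not show, and the other scalings tried have the same limit. Rises and falls below are meant in this relative sense. Differences are log2 fold changes, Taf8-deleted minus Taf8-intact, with their standard error (SE), and p-values come from the quasi-likelihood test of edgeR, adjusted by Benjamini-Hochberg over the 16074 genes, with 0.05 as the threshold. The animal numbers of the groups share no number before the point. They were 408.4, 408.5, 408.6 and 409.2 for the intact embryos, against 456.1, 472.1, 477.1 and 486.1 for the deleted ones. Most intact embryos thus share the number before the point, and the deleted ones do not. The labels do not say what this number marks, and whatever it stands for cannot be told apart from the genotype.

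Many cell type markers differed between the groups, where 63.5% of all genes tested did (30.6% higher and 32.9% lower). Of 15 neuron markers, 12 were lower and 1 (Nefm) was higher in the deleted cortex. Their summed level was 8195 to 8977 CPM in the intact and 6318 to 6869 CPM in the deleted libraries. Of 13 radial glia markers, 8 were higher and 2 (Fabp7 and Slc1a3) were lower, with sums of 2679 to 3043 CPM against 3717 to 3894 CPM. Of 12 markers of cycling cells, 7 were lower and none was higher, with sums of 2059 to 2465 CPM against 2073 to 2163 CPM. With upper-quartile scaling or library totals only, 4 of the 12 were lower. No marker of these 3 lists was at 0 in all libraries. The part of these markers in the results below was not tested, and in bulk tissue fewer cells of a type and less RNA per cell cannot be told apart. Intact replicate 3 stood apart from the other intact libraries in the same markers. It had the highest level of the intact libraries for 11 of the 15 neuron markers and the lowest for 12 of the 12 cycling markers and 10 of the 13 radial glia markers. The same library had the highest intact level of 4 of the 4 neuronal BAF forms and the lowest intact level of 4 of the 4 progenitor forms. Several results for the BAF genes below are therefore given with and without it. With each library left out in turn, 12 neuron markers were lower and 1 was higher every time. In the same fits, 7 to 9 radial glia markers were higher and 2 were lower. Of the cycling markers, 5 to 9 were lower and none was higher.

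In their levels, the 2 sets of forms did not move in opposite directions in the deleted cortex. Of the 4 progenitor forms, 1 rose (Ss18), 1 fell (Phf10) and 2 did not pass the test (Actl6a and Dpf2). Of the 4 neuronal forms, 3 fell (Actl6b, Dpf1 and Dpf3) and 1 rose (Ss18l1). Both ATPase genes fell. The median log2 fold change was -0.01 over the progenitor forms and -0.20 over the neuronal forms. The ratios of a neuronal to a progenitor form, given below, were all lower on average in the deleted cortex. Their log2 differences ran from -0.10 to -1.51, and none had an adjusted p under the threshold (exact permutation test). Libraries overlapped for Ss18l1 to Ss18 and Dpf1 to Phf10, and several ratios share a gene. In all, 8 of the 10 genes (80%) passed the threshold where 63.5% of all genes tested did. Of the 10, 6 (60%) fell, beside 32.9% of all genes, and 2 (20%) rose, beside 30.6% of all genes. The share of rises is near that of all genes. The sizes were modest. The median absolute log2 fold change was 0.20 over the 10 genes and 0.27 over all genes tested. The libraries of the groups did not overlap for 8 of the 10 genes, against 57.7% of all genes. Without intact replicate 3 the same 8 of the 10 calls were made.

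**Figure D1:**
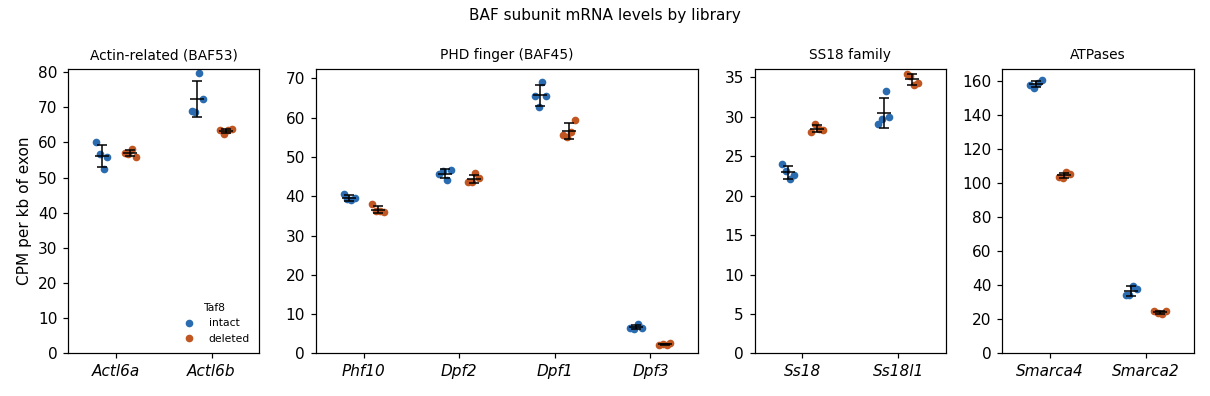
Level of each gene in each library, in CPM per kb of the deposited gene length (linear axes from 0), for Taf8-intact (blue) and Taf8-deleted (orange) libraries, with bars for mean ± SD (n = 4 each). Smarca4, Smarca2 and Dpf3 are clearly lower in the deleted libraries, Ss18 and Ss18l1 are higher, and the points of Actl6a and Dpf2 overlap.

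Dpf3 fell most among the 10 genes. It encodes BAF45C, a subunit with tandem PHD fingers that bind acetylated and methylated histone H3 tails, and lies on chromosome 12 from 83213751 to 83487736 (GRCm38.p6, minus strand, gene ID 70127), with no exon shared with another gene in the annotation used. The counts of Dpf3 were 357, 348, 396 and 351 in intact cortex, against 130, 130, 116 and 135 in deleted cortex. On the scaled level this was 8.30, 8.20, 9.64 and 8.32 CPM against 2.85, 2.95, 2.62 and 3.37 CPM. Every deleted library lay below every intact one, and intact replicate 3 was the highest. The log2 fold change was -1.55 ± 0.10 (SE, adjusted p = 7.97e-08 by edgeR), a 2.93-fold lower level. This size exceeded that of 96.8% of the genes tested. Without intact replicate 3 it was -1.48.

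Dpf1, which encodes BAF45B and is known for its expression in neurons, fell much less. Dpf1 lies on chromosome 7 (29303952 to 29317592, plus strand, gene ID 29861). Its levels were 149, 143, 158 and 149 CPM in the intact libraries and 127, 126, 128 and 135 CPM in the deleted ones. The groups did not overlap, and the deleted library nearest to the intact range was replicate 4. The difference was -0.21 ± 0.04 on the log2 scale (adjusted p = 0.000424, edgeR), and its 95% interval of -0.30 to -0.13 does not reach the size of the Dpf3 change.

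The progenitor-type partners of these genes changed little. Phf10, encoding BAF45A, which is known to be needed for progenitor proliferation, lies on chromosome 17 (14944994 to 14961260, minus strand, gene ID 72057). Its level was 67.6, 65.3, 64.8 and 66.0 CPM in the intact and 63.3, 60.4, 60.3 and 59.7 CPM in the deleted libraries. All deleted libraries were below all intact ones, by a narrow margin. The difference was -0.11 ± 0.03 (SE, adjusted p = 0.00857, edgeR), and it no longer passed the threshold with upper-quartile scaling (-0.06, adjusted p = 0.15) or with library totals only (-0.05, adjusted p = 0.194). In GENCODE, 9.56% of its exon bases are shared with a gene on the opposite strand. Its deposited length is 1665 bases, against 4914 exon bases in GENCODE, so whether the shared bases were counted is not known. If they were, unstranded reads there cannot be assigned with certainty.

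Dpf2, the broadly expressed member of the family that encodes BAF45D, lies on chromosome 19 (5896516 to 5912871, minus strand, gene ID 19708). It had 123, 125, 119 and 125 CPM in the intact libraries and 118, 117, 123 and 120.0 CPM in the deleted ones. The groups overlapped. The difference of -0.04 ± 0.03 (SE, adjusted p = 0.301, edgeR) had a 95% interval of -0.11 to 0.03, which leaves room for a fall of a few percent.

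Of the actin-related pair, the neuronal gene fell and the progenitor gene did not pass the test. Actl6a, encoding BAF53A, lies on chromosome 3 (32708546 to 32726973, plus strand, gene ID 56456). Its levels were 118, 112, 103 and 109.7 CPM in the intact libraries and 112, 112, 115 and 110.2 CPM in the deleted ones. The 4 deleted values lay inside the intact range. The difference was 0.02 ± 0.04 on the log2 scale (adjusted p = 0.69, edgeR) with a 95% interval of -0.07 to 0.11, and only 4.27% of the genes tested differed less. Of its exon bases, 11.6% are shared with Mrpl47 on the opposite strand.

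Actl6b, encoding BAF53B, is known from the dendrites and synaptic plasticity of neurons, and lies on chromosome 5 (137553361 to 137569582, plus strand, gene ID 83766). It had 106.5, 106.5, 123 and 112 CPM in the intact libraries and 98.2, 96.4, 98.1 and 98.9 CPM in the deleted ones. The groups did not overlap, and the deleted libraries varied less (coefficient of variation 1.08%) than the intact ones (7.06%). The difference was -0.19 ± 0.05 (SE, adjusted p = 0.00252, edgeR), or a level lower by 12.6%. The highest intact value came from replicate 3, and without that library the difference was -0.14 and still passed the threshold.

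Both genes of the SS18 pair rose. Ss18 encodes the progenitor-type subunit, which is also known as the BAF partner in the fusion protein of synovial sarcoma, and lies on chromosome 18 (14625629 to 14684419, minus strand, gene ID 268996). Its level was 74.4, 71.4, 68.4 and 69.9 CPM in the intact libraries and 86.9, 89.9, 88.0 and 87.7 CPM in the deleted ones. All deleted libraries were above all intact ones. The rise was 0.31 ± 0.03 on the log2 scale (adjusted p = 4.86e-06, edgeR), or 24.1%.

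Ss18l1, encoding CREST, a calcium-responsive transactivator known for dendrite growth, lies on chromosome 2 (180042483 to 180070201, plus strand, gene ID 269397). It had 127, 129.9, 146 and 131 CPM in the intact libraries and 155, 154, 149 and 149.6 CPM in the deleted ones. The groups did not overlap, although intact replicate 3 came within a few CPM of the lowest deleted library. The rise was 0.19 ± 0.04 (SE, adjusted p = 0.00234, edgeR), and 0.24 without intact replicate 3. Ss18l1 was thus the only neuronal form that went up.

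The ATPase genes fell by nearly the same factor. Smarca4 was the most abundant of the 10 in both groups and lies on chromosome 9 (21616106 to 21704230, plus strand, gene ID 20586). It had 1006.5, 996.8, 1013.8 and 1024.7 CPM in the intact libraries and 662, 659, 679 and 673 CPM in the deleted ones. The groups were far apart compared with their spread, with coefficients of variation of 1.16% and 1.42%. The log2 fold change was -0.60 ± 0.03 (SE, adjusted p = 6.03e-09, edgeR), or a 1.51-fold lower level.

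Smarca2, whose product BRM is the alternative ATPase, lies on chromosome 19 (26605073 to 26778321, plus strand, gene ID 67155). Its level was 209.9, 210.0, 243 and 231 CPM in the intact libraries and 152, 145, 141 and 152 CPM in the deleted ones. No deleted library reached the lowest intact one, and intact replicate 3 was again the highest. The log2 fold change was -0.60 ± 0.05 (SE, adjusted p = 6.92e-07, edgeR), and -0.55 without that library. Both ATPase changes were larger in size than those of 78% of all genes tested.

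**Figure D2:**
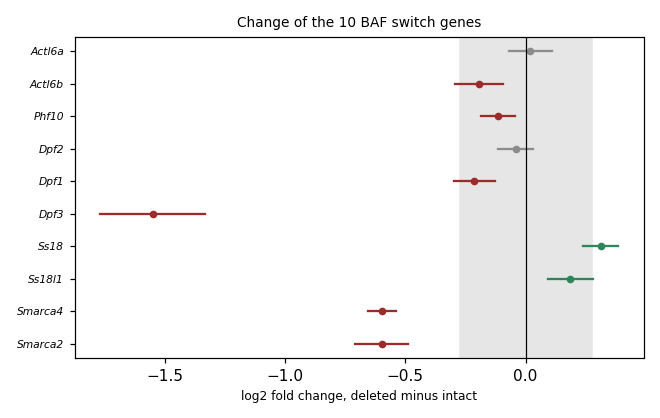
Log2 fold change (deleted minus intact) of the 10 genes with 95% intervals, in red for genes that fell, green for genes that rose and grey for genes that did not pass the threshold. The grey band is the interquartile range of all genes tested (-0.27 to 0.27): Dpf3, Smarca4 and Smarca2 lie outside it, and 6 of the other 7 lie inside it, with Ss18 at 0.31 just beyond its edge.

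Levels of different genes were compared per kb of deposited gene length, which assumes that the deposited length describes the transcripts present. In intact cortex the mean levels in CPM per kb were 158 for Smarca4, 72.4 for Actl6b, 65.7 for Dpf1, 56.2 for Actl6a, 45.7 for Dpf2, 39.6 for Phf10, 36.7 for Smarca2, 30.5 for Ss18l1, 23.0 for Ss18 and 6.64 for Dpf3. Among neighbours in this order, the ranges over libraries overlapped for Actl6b and Dpf1 and for Phf10 and Smarca2, and the other neighbours were separate. Apart from Dpf3, progenitor and neuronal forms of a family lay within 2-fold of each other. In deleted cortex Smarca2 dropped behind Ss18l1 and Ss18, to 24.2 CPM per kb, and Actl6a (57.0 CPM per kb) and Dpf1 (56.6 CPM per kb) overlapped. Dpf3 remained the lowest, at 2.27 CPM per kb. Its deposited length is 1298 bases, against 4225 bases for all its exons together in GENCODE. Other lengths differed as well, such as Ss18 (3092 against 9419), Phf10 (1665 against 4914), Actl6b (1548 against 4267) and Smarca2 (6086 against 14269). Those of Ss18l1 (4369 against 4343) and Smarca4 (6376 against 6475) were close. The order, the closeness of forms within a family, and the per-length ratios and family shares below thus depend on the annotation used for counting. Log2 differences between the groups do not.

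Ratios between paired genes within a library do not depend on library scaling, and 7 of them were compared with a two-sided exact permutation test over the 70 ways to split 8 libraries. The smallest p this design allows is 0.0286, which becomes 0.05 when adjusted over the 7 ratios and so cannot fall under the threshold where 4 ratios reach it. The ratio of Actl6b to Actl6a per length was 1.15, 1.21, 1.52 and 1.30 in intact cortex, against 1.11, 1.10, 1.09 and 1.14 in deleted cortex. The groups did not overlap, but the lowest intact and the highest deleted value were close. The log2 difference was -0.21 (exact permutation p = 0.0286, adjusted p = 0.05), and it shrank to -0.13 (adjusted p = 0.0667) without intact replicate 3.

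In the SS18 pair the ratio of Ss18l1 to Ss18 was 1.21 to 1.51 in the intact and 1.20 to 1.26 in the deleted libraries. The groups overlapped, since both genes rose. The log2 difference of -0.12 (exact permutation p = 0.0571, adjusted p = 0.08) was -0.06 without intact replicate 3. The ratio of Smarca2 to Smarca4 was 0.232 ± 0.015 in the intact and 0.231 ± 0.010 in the deleted libraries (SD, n = 4 each), with a log2 difference of 0.00 (exact permutation p = 1). Without intact replicate 1 the SS18 ratio differed by -0.17. It then reached the smallest possible p, as did Actl6b to Actl6a, Dpf3 to Phf10, Dpf1 to Dpf2 and Dpf3 to Dpf2. With 1 more ratio at that p, the adjusted p of all of them was 0.04 (exact permutation test). Passing the threshold here follows from how many ratios share the smallest p, and is not added support for a difference.

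Of the PHD finger genes, the ratio of Dpf3 to Phf10 fell from 0.168 ± 0.0155 to 0.0623 ± 0.0074, and that of Dpf3 to Dpf2 from 0.146 ± 0.0153 to 0.0513 ± 0.0058 (SD, n = 4 each). The log2 differences were -1.43 and -1.51, each with exact permutation p = 0.0286 and adjusted p = 0.05. Dpf1 relative to Dpf2 differed by -0.17 (exact permutation p = 0.0286, adjusted p = 0.05), again without overlap. Dpf1 relative to Phf10 differed by -0.10 with overlapping groups (exact permutation p = 0.143, adjusted p = 0.167). Within the family, Dpf3 supplied 4.21% of the summed level per length in intact and 1.62% in deleted cortex, while Dpf1 supplied 41.6% and 40.5%. Dpf2 supplied 29.0% and 31.8%, without overlap of the libraries, and Phf10 25.1% and 26.2%, with overlap. Dpf3 was the least abundant member of the family in both groups, and its fall moved the family's makeup by a few percentage points.

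**Figure D3:**
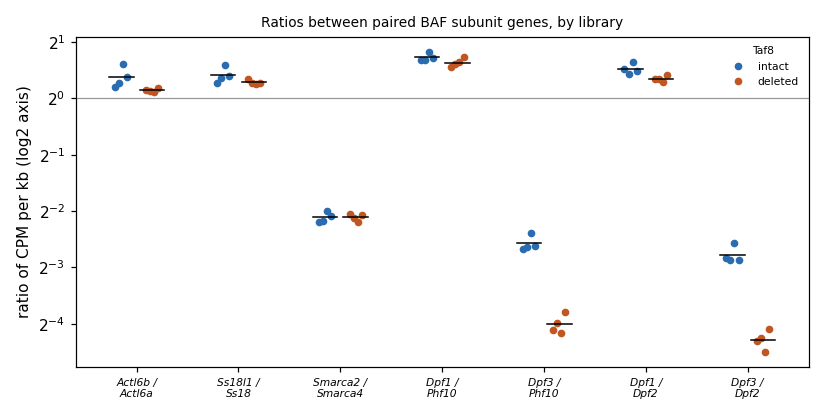
Ratio of the levels per length of paired genes in each library (log2 axis), for Taf8-intact (blue) and Taf8-deleted (orange) libraries, with lines at the group means. The 2 ratios with Dpf3 are far lower in the deleted libraries, the points of Smarca2 to Smarca4 overlap, and the highest intact point of each ratio is replicate 3.

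The promoters of Dpf3, which fell most, and of Ss18l1, which rose, are shown because TFIID acts at core promoters. The sequences are the 250 bases before the annotated start from RefSeq (GRCm38.p6), at chr12:83487737-83487986 (minus strand) for Dpf3 and chr2:180042233-180042482 (plus strand) for Ss18l1. Ss18, with the largest rise, is named only. Capitals mark the CCAAT box (CCAAT, or ATTGG on the other strand) and the GC box (GGGCGG, or CCGCCC on the other strand).
Dpf3: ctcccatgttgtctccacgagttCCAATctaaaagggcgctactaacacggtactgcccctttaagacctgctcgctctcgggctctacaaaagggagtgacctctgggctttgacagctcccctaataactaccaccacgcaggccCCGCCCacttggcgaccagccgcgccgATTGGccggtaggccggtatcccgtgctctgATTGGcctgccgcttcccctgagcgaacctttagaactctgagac
Ss18l1: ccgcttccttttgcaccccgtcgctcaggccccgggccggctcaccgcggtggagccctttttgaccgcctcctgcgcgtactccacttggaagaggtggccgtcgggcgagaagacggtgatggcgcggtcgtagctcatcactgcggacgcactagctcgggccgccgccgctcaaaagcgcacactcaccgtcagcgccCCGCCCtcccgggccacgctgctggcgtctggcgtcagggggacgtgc
The Dpf3 stretch has 58.8% G and C with 16 CpG, and the Ss18l1 stretch 70.4% with 32 CpG. The medians over the same 250 bases of 32851 promoters were 52.4% and 6 CpG. Motifs were searched on both strands in windows of 300 bases (250 before to 50 after the start), which were at hand for 9 of the 10 genes. The TATA box (TATAAA) was in 0 of the 9 windows, against 13.6% of 32851 windows of the same length. The GC box was in 8 of 9, Dpf2 being the exception, against 35.7%. Whether this share exceeds that of windows with a like G and C content was not tested. Ss18l1 also has GC boxes after the start, which the printed stretch does not show. The CCAAT box was in 4 of 9 (Actl6b, Dpf1, Dpf3 and Dpf2), against 37.4%. The NRF1 motif was in the windows of Smarca4 and Dpf2, against 4.6% of all windows. The left and right half-sites of RE1, the element bound by REST, were in 0 of the 9 windows, against 0.371% and 0.137% of all windows. A match describes the letters of the window, and a missing match says only that these letters are not in it.

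Most of the other BAF subunit genes examined were lower as well. The list includes genes known from neurons and is not a set of constant subunits. Of 21 other BAF genes, 15 fell (71.4%, against 32.9% of all genes), 1 rose and 5 did not pass the test, with a median log2 fold change of -0.345 where the median of all genes was 0.00. Smarcd1, encoding a subunit of the BAF60 family that links the complex to transcription factors, had 321, 313, 308 and 319 CPM in the intact libraries and 166, 170.2, 172 and 176 CPM in the deleted ones, without overlap. Its log2 fold change was -0.89 ± 0.03 (SE). Bcl7b and Bcl7c, which encode small accessory subunits, fell by 0.91 ± 0.07 and 0.66 ± 0.07 on the log2 scale.

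Bcl11a and Bcl11b encode zinc finger proteins of cortical neurons that are also BAF subunits. They fell by 0.79 ± 0.03 and 0.76 ± 0.05 on the log2 scale (SE). Smarcd3, the BAF60 gene known from neurons and muscle, fell by 0.66 ± 0.04, with 48.2% of its exon bases shared with genes on the opposite strand. The gene that rose was Actb, encoding the β-actin that also sits in the complex, by 0.11 ± 0.04 (adjusted p = 0.0232, edgeR) with overlapping groups. It did not pass without deleted replicate 2 (0.10, adjusted p = 0.052). Arid1a, which encodes a DNA-binding subunit of the canonical complex, had 582 ± 17.8 CPM in the intact and 612 ± 45.4 CPM in the deleted libraries (SD, n = 4 each). The difference did not pass the test (adjusted p = 0.216, edgeR). Arid1a passed without deleted replicate 2 (log2 fold change 0.13, adjusted p = 0.0144) and with upper-quartile scaling or library totals only (0.13 with each). The related gene Arid1b fell without overlap, by 0.15 ± 0.03 on the log2 scale (SE, adjusted p = 0.00127, edgeR).

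The genes that control the exchange gave mixed values. Of 12 such genes, 2 rose (30.6% of all genes did), 6 fell (32.9% of all genes did) and 4 did not pass the test, with a median log2 fold change of -0.08. The share that passed in either direction, 8 of 12, is near the 63.5% of all genes. Rest, the repressor of neuronal genes, had 24.99 ± 0.543 CPM in the intact and 24.0 ± 0.520 CPM in the deleted libraries (log2 fold change -0.06 ± 0.04 (SE), adjusted p = 0.244, edgeR). Its corepressor genes Rcor1 and Rcor2 fell by 0.09 (adjusted p = 0.0305, edgeR) and 0.34 (adjusted p = 2.94e-05) on the log2 scale. Rcor1 kept its call in only 6 of 19 alternatives (-0.11 to -0.03 over all 19). Leaving out intact replicate 2 or 4 or any 1 of the 4 deleted libraries ended it, as did DESeq2. The small phosphatase genes Ctdsp1, Ctdsp2 and Ctdspl, whose products work with REST, had differences of -0.01, 0.04 and -0.05 that did not pass the test.

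The host transcripts of miR-124 fell. Mir124a-1hg, the host of Mir124a-1, had 159.9, 146, 158 and 145 CPM in the intact libraries and 59.2, 53.2, 60.6 and 69.7 CPM in the deleted ones. The groups were far apart, and the log2 fold change was -1.33 ± 0.07 (SE). Mir124-2hg fell from 12.1 ± 0.659 to 7.68 ± 0.730 CPM. The hosts of miR-9 diverged: C130071C03Rik, which holds Mir9-2, fell from 10.6 ± 1.24 to 3.70 ± 0.502 CPM, while Mir9-3hg rose from 85.7 ± 4.89 to 115 ± 16.5 CPM. A host transcript is not a measure of the mature microRNA, and 24.7% of the exon bases of C130071C03Rik are shared with other genes.

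Ptbp1 and Ptbp2 encode splicing repressors, of which the first is known from progenitors and a target of miR-124, and the second is known from young neurons. Ptbp1 rose by 0.24 (adjusted p = 0.0048, edgeR) and Ptbp2 fell by 0.78 ± 0.04 (SE), with 20.7% of the exon bases of Ptbp1 shared with other genes. Ptbp2 had 367 to 381 CPM in the intact and 208 to 230.4 CPM in the deleted libraries. Beside these genes, Actl6a, the other known target of the 2 microRNAs considered here, stayed within its intact range of 103 to 118 CPM in every deleted library.

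**Figure D4:**
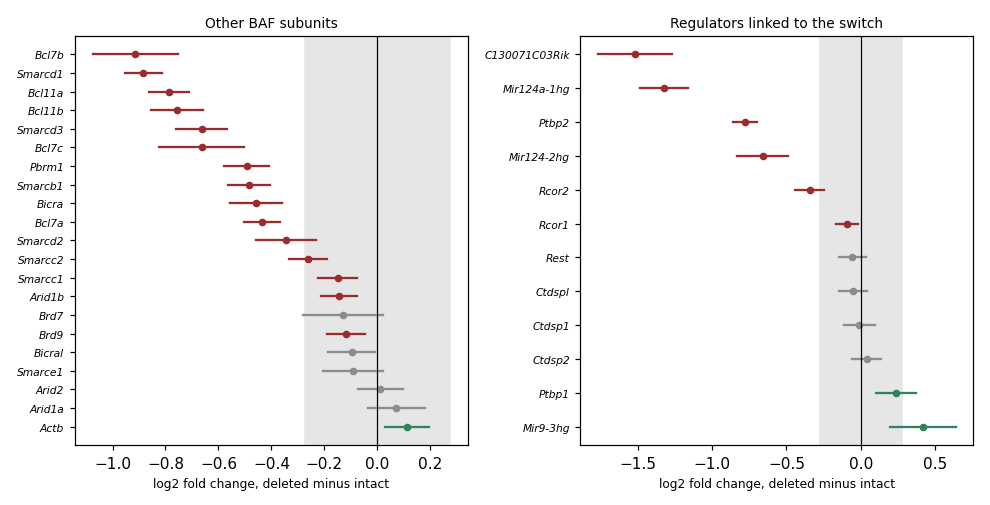
Log2 fold change (deleted minus intact) with 95% intervals for 21 other BAF subunit genes (left) and 12 genes linked to control of the exchange (right), in red for genes that fell, green for genes that rose and grey for genes that did not pass the threshold. The grey band is the interquartile range of all genes tested: 15 of the 21 subunit genes fell and only Actb rose, and the largest falls on the right are in microRNA host transcripts.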

How the data were processed

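Per the file headers, the authors deposited raw counts for each gene and embryo, made without regard to strand. The submitters' processing notes name bcl2fastq 1.8.4, Subread 1.5.0, featureCounts and mm10, without roles, and the sources used here do not give the annotation or filters. Gene symbols were matched by numeric identifier to RefSeq (GRCm38.p6): 25275 identifiers had a symbol and 1904 did not. Exon overlaps came from GENCODE vM21, whose exons need not be those that were counted.

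Counts were tested with edgeR 4.0.16 in R 4.3.3: filterByExpr (16074 genes), TMM factors (0.971 to 1.028), robust quasi-likelihood, no covariates, all 8 libraries. Each SE was the fold change divided by the root of F. The test was run on simulated data first. Ratios used counts plus 0.5. Because libraries within a group differed by more than sampling noise (chi-square per gene 4.22 to 14.6), none were merged. No unused columns of per-sample values were left. Alternatives were RLE, upper-quartile or no scaling factors, other filters, DESeq2 1.42.0, limma 3.58.1 voom with and without quality weights, a replicate block, identifiers without a symbol left out, each library left out, and both replicates 4 left out. Named genes are all 10 genes, and the 6 other subunits with the largest changes and up to 2 in the opposite direction. Also named are 4 other remodeller ATPases and 1 opposite, and every regulator. Markers are named only from the neuron, radial glia and intermediate progenitor lists. The values of Arid1a and Arid1b were added after they were seen. The genes and lists were chosen with earlier results of these data known.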

Additional observations from a re-analysis of the deposited data

Results flagged for a closer look

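Dpf3 was higher in intact replicate 3 than in the other intact libraries, at 9.64 CPM against 8.20 to 8.32 CPM. The gap was large relative to the group's range by Dixon's test for 4 samples. The same library stood apart in the log2 count ratio of Dpf3 to Phf10, at -2.75 against -3.02 to -2.98 in the other intact libraries, and of Dpf3 to Dpf2, at -3.62 against -3.93 to -3.89. Chance gives such a flag in about 1 in 20 groups, and 20 groups of gene levels and 14 groups of ratios were screened. The 3 flags share the Dpf3 counts of 1 library. Without that library Dpf3 fell by 1.48 on the log2 scale, and the 2 ratios differed by -1.37 and -1.43.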

How the results depend on the processing

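Of 190 results for the 10 genes under 19 alternatives, 188 kept their direction and side of the threshold or were not called either way. Phf10 was not called with upper-quartile factors (-0.056) or library totals only (-0.052), so the count of progenitor forms that fell was 0 under both. These scalings moved the median of all genes by 0.058 and 0.062. Actl6a ranged from -0.01 to 0.08 and Dpf2 from -0.05 to 0.02 over all alternatives, never called. The count of other BAF genes that rose was 2 under those scalings and 0 with the replicate block. Over the libraries left out in turn, the log2 ratio differences ranged from -0.27 to -0.13 for Actl6b to Actl6a, -0.168 to -0.064 for Ss18l1 to Ss18, -1.51 to -1.37 for Dpf3 to Phf10, -0.20 to -0.13 for Dpf1 to Dpf2 and -1.57 to -1.43 for Dpf3 to Dpf2. Without intact replicate 1, 5 ratios had adjusted p = 0.04 (exact permutation test), Ss18l1 to Ss18 among them. That value is fixed by 5 ratios sharing the smallest possible p. Same-numbered libraries did not deviate together (correlations -0.436 to 0.005), and with the replicate number as a block all 10 calls were the same, with 4605 genes higher and 5060 lower against 4919 and 5290. Of 3019 results for other genes, markers and lists, 132 lost and 44 gained the threshold, 27 moved and 0 reversed. With 116 to 135 counts, Dpf3 in the deleted libraries has the least depth of the 10 genes.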

Other observations

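Of the genes of chromatin remodelling ATPases outside the BAF complex, 8 of 16 fell (50%, beside 32.9% of all genes), 2 rose (30.6% of all genes did) and 6 did not pass the test, with a median log2 fold change of -0.10. The 10 of 16 that passed are near the 63.5% of all genes. Chd3, an ATPase of the NuRD complex known from late stages of cortical neuron development, fell from 1228 ± 27.0 to 622 ± 40.1 CPM (SD, n = 4 each). Chd5, the NuRD ATPase of neurons, and Chd9 fell by 0.48 and 0.36 on the log2 scale, and Ep400 rose by 0.34 ± 0.06 (SE). Smarca5, the ATPase of ISWI complexes, rose by 0.21. Whether the BAF subunits differ from these genes as a group was not tested.

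The other marker lists had these values, where 30.6% of all genes rose and 32.9% fell. Markers of intermediate progenitors, the precursors of cortical projection neurons, rose in 5 of 8 genes and fell in 2. Those that fell were Eomes and Insm1 (log2 fold changes -0.28 and -0.33). Those that rose were Dll3, Dll1, Gadd45g, Btg2 and Neurog2 (0.93, 0.91, 0.62, 0.52 and 0.24). Neurog2 kept its call in 11 of 19 alternatives. The list as a whole therefore did not move in 1 direction. Interneuron markers rose in 1 and fell in 7 of 9, and oligodendrocyte precursor markers rose in 1 and fell in 4 of 6. Endothelial markers rose in 6 of 7, blood markers in 3 of 6, microglia markers in 3 of 7 with 1 lower, and meningeal markers in 4 of 6. The blood and meningeal counts depend on single libraries. Without intact replicate 3 no blood marker rose, and without intact replicate 1 or 2 or deleted replicate 2 or 3 only 1 did, while leaving out any of these 5 libraries left 1 meningeal marker that rose. Without deleted replicate 4, 4 blood and 6 meningeal markers rose. Without intact replicate 3, 2 microglia markers were lower, and without intact replicate 3 or 4 or deleted replicate 3 no oligodendrocyte precursor marker rose. The summed level of the meningeal markers was 15.9 to 37.1 CPM in the intact libraries and 61.1, 117, 147 and 18.7 CPM in the deleted ones, so that deleted replicate 4 lay within the intact range. All 10 BAF calls were the same with both replicates 4 left out.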
